A study of Homo sapiens with 10 samples.

Results

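PHGDH, PSAT1, PSPH, SHMT1, SHMT2, MTHFD1, MTHFD2, MTHFD1L and TYMS encode enzymes that make serine and pass its carbon through the folate one-carbon cycle. These 9 genes were listed by symbol and matched to the Ensembl identifiers of the count files through GENCODE. All 9 were found among the 63677 gene identifiers of the files, and all 9 were among the 16756 genes that passed the filter on low counts and were tested. RS4;11 is an established line of B-cell precursor acute lymphoblastic leukaemia (BCP-ALL), and venetoclax (VEN) is an inhibitor of the anti-apoptotic protein BCL-2. The 5 VENins lines had been generated under stepwise increasing VEN, were maintained under VEN and had the drug washed out before analysis, while the 5 VENsens lines were grown alongside with DMSO, the solvent. All 10 lines go back to the same parental cell line, and each gave 1 RNA-Seq library, so that replicates are separately grown cultures of a single leukaemia model. The comparison of VENins with VENsens lines addresses how cells adapted to VEN and grown with it differ in expression from cells never given it, and lasting adaptation and recent exposure to the drug cannot be told apart.

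Serine is made from a glycolytic intermediate in steps carried out by PHGDH, PSAT1 and PSPH. Serine hydroxymethyltransferases then move a carbon unit from serine to tetrahydrofolate, and MTHFD enzymes interconvert the folate-bound units, with SHMT1 and MTHFD1 acting in the cytosol and SHMT2, MTHFD2 and MTHFD1L in mitochondria, from where formate returns to the cytosol. The units serve purine, thymidylate and methionine synthesis, and lymphoblasts depend on them closely enough that antifolates such as methotrexate are a mainstay of ALL therapy.

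Gene counts per library ranged from 20631907 to 28323643 among VENsens lines, with a median of 24010870, and from 21145316 to 25394653 among VENins lines, with a median of 24611645. Counts on the 9 enzymes made up between 0.211% and 0.247% of all gene counts of a library. PSPH had the lowest count of any enzyme in any library, 753 in VENsens line 2, which corresponds to a counting error of 3.64%. The lowest count of SHMT2 was 10861, with a counting error of 0.96%. The spread between lines of a group, given as the coefficient of variation, ran from 2.17% for TYMS to 13.4% for PHGDH, both in VENins lines, and it covers culture, library and counting together.

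Markers of the labelled cell type were present in both groups. Among 10 B-lineage markers, CD79A stood at 548 ± 24.1 CPM (gene counts relative to the library's total, scaled by TMM) in VENsens lines and at 583 ± 90.4 CPM in VENins lines (mean ± SD, n = 5 each), and the summed markers stood at 3490 ± 41.3 and 3480 ± 178 CPM. The stem cell antigen CD34 was near 0, at 0.0581 ± 0.0378 and 0.00817 ± 0.0183 CPM. Of the 9 B-lineage markers tested, 3 were higher and 3 lower in VENins lines at an unadjusted p under 0.05 in edgeR's quasi-likelihood test, against 16.2% of all tested genes. The groups of 2 did not overlap, both lower in VENins lines, against 4.66% of all tested genes. After adjustment 1 of the 9 was called, where 0.197% of all tested genes were. It was PAX5, a transcription factor that maintains B-cell identity, with means of 783 ± 42.9 CPM for VENsens lines and 631 ± 34.7 CPM for VENins lines. Its log2 fold change was -0.31 with 0 of 5 line pairs higher in VENins lines (adjusted p = 0.0272 in edgeR's quasi-likelihood test), and it was no longer called once pair 2, 3 or 5 was left out (adjusted p = 0.242, 0.0597 and 0.0647 in the same test, with 1.24e-06 to 0.242 over all settings), where its log2 fold changes were -0.265, -0.337 and -0.318. The KMT2A-rearranged leukaemia markers HOXA9, HOXA10, MEIS1 and FLT3 summed to 641 ± 21.2 and 631 ± 15.3 CPM, with HOXA9 at 143 ± 1.43 and 152 ± 7.83 CPM. Of the 6 T-cell markers, CD3E was the most abundant at 0.918 ± 0.102 and 0.8 ± 0.118 CPM, with CD3D and CD2 at 0 in all VENsens lines. The summed myeloid markers were at 9.9 ± 1.42 and 11.2 ± 0.973 CPM, of which CSF1R made up 8.77 ± 1.48 and 10.2 ± 0.889 CPM. Stromal and epithelial markers summed to 17.3 ± 0.675 and 16 ± 2.1 CPM, of which PDGFRB made up 14.5 ± 0.699 and 13.4 ± 1.75 CPM, while EPCAM, KRT18 and PECAM1 were at 0 in every library. Erythroid markers summed to 0.156 ± 0.0817 and 0.13 ± 0.0902 CPM, with HBA1 and HBA2 at 0 in every library.

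None of the 9 enzyme genes passed the test between VENins and VENsens lines. In edgeR's quasi-likelihood test with the line number as a block, 0 of 9 had an adjusted p under 0.05, where 0.197% of all tested genes did (33 of 16756). At an unadjusted p under 0.05 stood 1 of 9, TYMS, against 16.2% of all tested genes, and TYMS was also the 1 of 9 whose groups did not overlap in CPM, against 4.66% of all tested genes. DESeq2 called 0 of 9 both with and without the line number in the model, where it called 217 and 739 of all 16756 tested genes. The enzymes' log2 fold changes lay between -0.076 for MTHFD1 and 0.11 for TYMS, and 3 of them, those of PHGDH, PSAT1 and TYMS, were above 0. Over all tested genes the median log2 fold change was 0.0035, the median of its size was 0.094, and 51.1% of the genes were above 0. Across the 95% intervals of the 9 enzymes, the lowest lower bound was -12.9% (SHMT2) and the highest upper bound 16.9% (PHGDH).

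**Figure D1:**
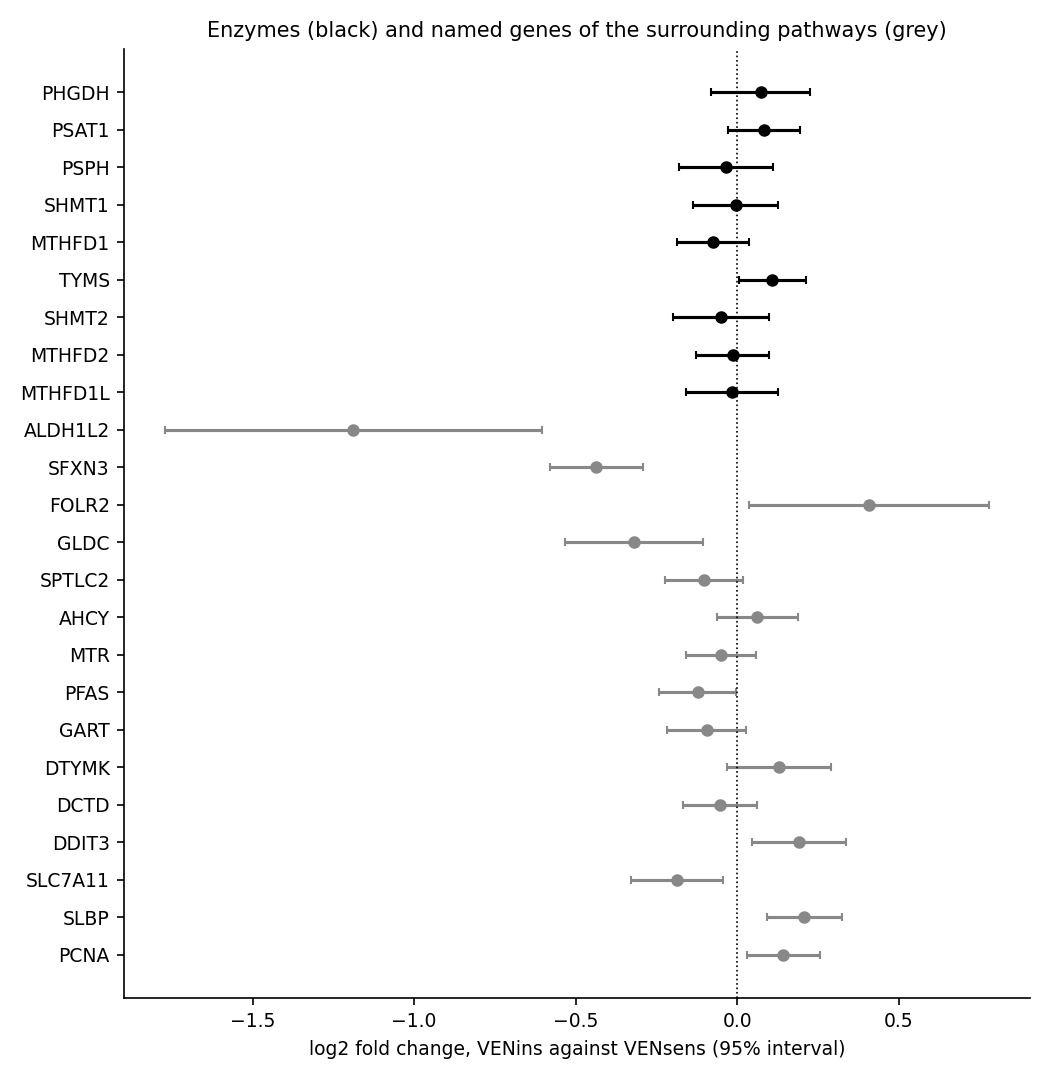
Log2 fold changes of VENins against VENsens lines with 95% intervals from edgeR's quasi-likelihood fit, for the 9 enzymes (black) and named genes of the surrounding pathways (grey). The enzymes lie between -0.076 and 0.11, while ALDH1L2, SFXN3 and GLDC lie at -1.19, -0.44 and -0.32.

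PHGDH (ENSG00000092621, chromosome 1, 119648411 to 119744226, plus strand of GRCh38) encodes phosphoglycerate dehydrogenase, the entry step of serine synthesis. Its level in VENsens lines 1 to 5 was 355, 294, 317, 324 and 314 CPM, and in VENins lines 1 to 5 it was 296, 306, 338, 345 and 412 CPM. The groups overlapped, with VENins line 5 above all other lines, VENsens line 1 next to it, and VENsens line 2 and VENins line 1 at the bottom. The means were 321 ± 22.1 and 339 ± 45.5 CPM (SD, n = 5 each). PHGDH had a log2 fold change of 0.073 (standard error, SE, 0.072, adjusted p = 0.664 in edgeR's quasi-likelihood test), with 4 of 5 line pairs higher in VENins lines. Line pair 1 had a log2 ratio of -0.26 and line pair 5 one of 0.39, the widest span between pairs among the 9 enzymes. Leaving out pair 5 turned the sign of the log2 fold change, which was then -0.0068, and leaving out pair 1 gave 0.16. With trends over gene length and GC content taken out it was 0.15 (adjusted p = 0.195 in the same test).

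PSAT1 (ENSG00000135069, chromosome 9, 78297143 to 78330093, plus strand) encodes the aminotransferase that follows PHGDH and takes its amino group from glutamate. VENsens lines 1 to 5 held 312, 287, 291, 299 and 302 CPM of PSAT1, and VENins lines 1 to 5 held 296, 299, 329, 322 and 333 CPM. VENins lines 3, 4 and 5 stood above every VENsens line, while VENins lines 1 and 2 lay inside the VENsens range. The means of 298 ± 9.92 and 316 ± 17.1 CPM differed by a log2 fold change of 0.082 (SE 0.052, adjusted p = 0.464 in edgeR's quasi-likelihood test), and 4 of 5 pairs were higher in VENins lines. Its sign did not turn when any pair was left out, with values from 0.058 to 0.12. PSPH (ENSG00000146733, chromosome 7, 56011051 to 56051604, minus strand) encodes the phosphatase that releases free serine. Its values were 44.5, 36.5, 39.8, 39.7 and 40.5 CPM in VENsens lines 1 to 5 and 36.5, 35.1, 41.9, 43.3 and 39.4 CPM in VENins lines 1 to 5. VENsens line 1 was highest and VENins line 2 lowest, and the groups shared nearly the whole range. PSPH was at 40.2 ± 2.88 and 39.2 ± 3.46 CPM with a log2 fold change of -0.035 (SE 0.068, adjusted p = 0.852 in edgeR's quasi-likelihood test) and 2 of 5 pairs higher in VENins lines.

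**Figure D2:**
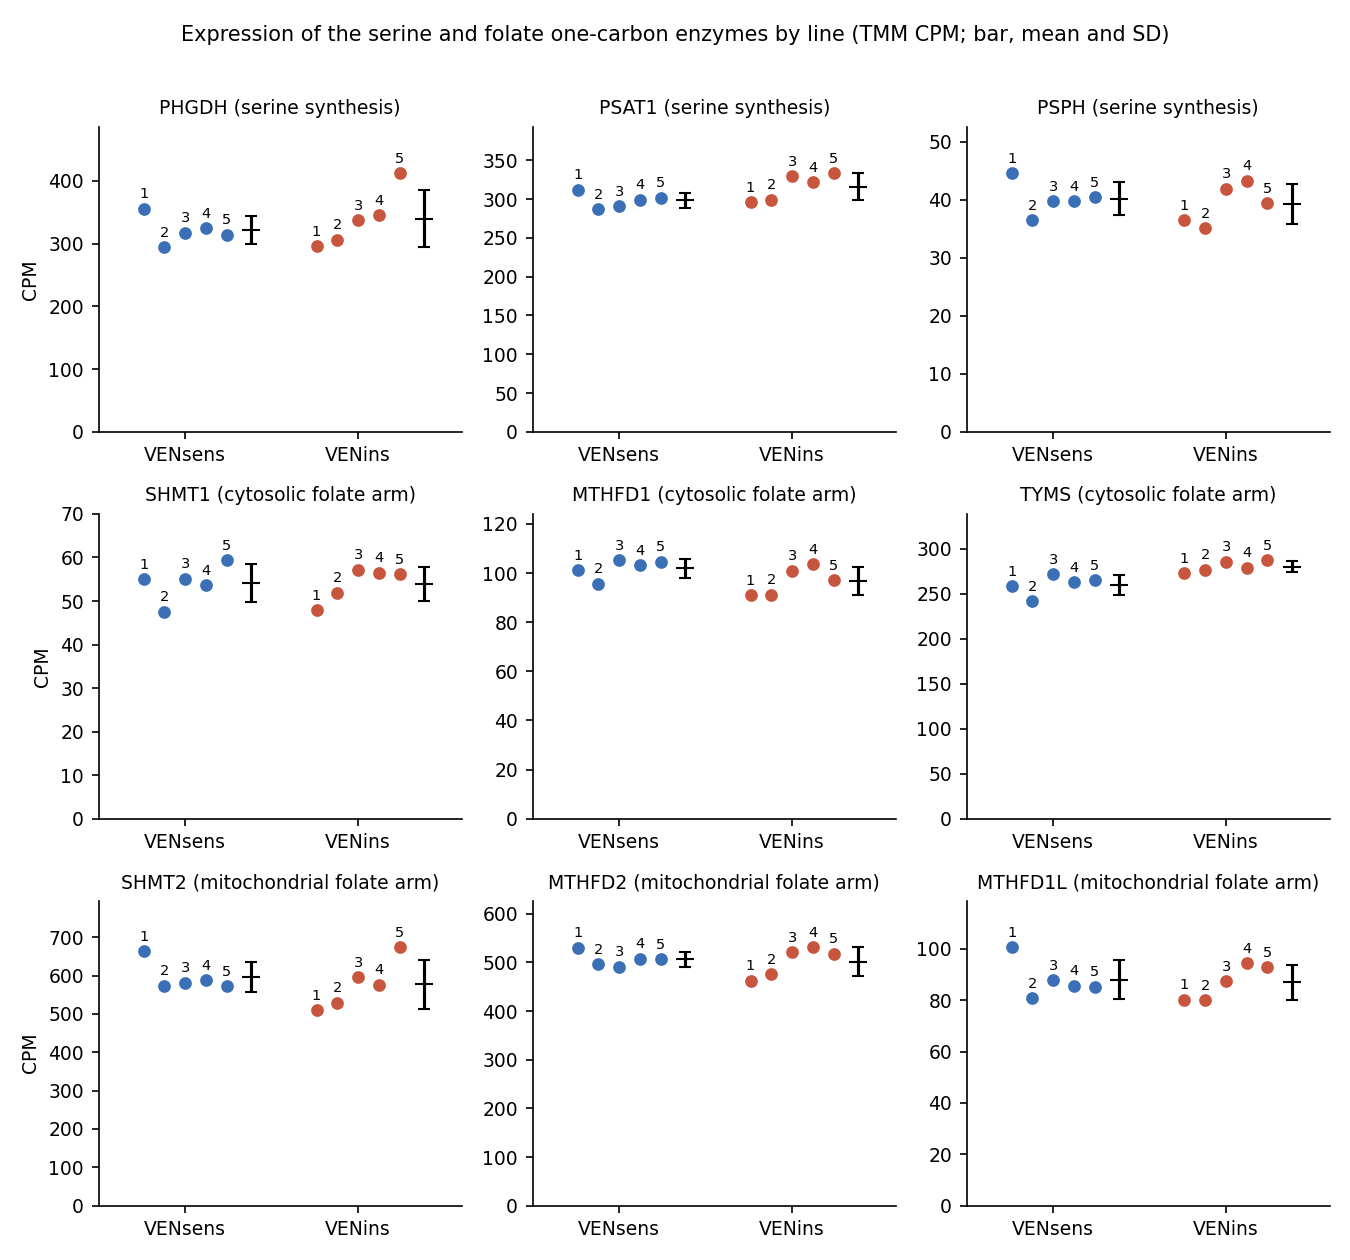
Expression of the 9 enzymes in CPM after TMM normalization, each point 1 line with its number, VENsens in blue and VENins in red, bars the mean and SD of 5 lines. TYMS is the enzyme whose groups do not overlap, and VENsens line 2 and VENins line 1 are each the lowest of their group for 7 enzymes.

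Serine and mitochondrial folate genes are known targets of the transcription factor ATF4, and NF-Y binds CCAAT boxes in the promoters of many growth-related genes. RefSeq promoter windows (GRCh38.p14, 250 bases before to 50 after a start site) were found for 7 of the 9 enzymes, in 10 windows, and not for PSPH and SHMT2. Each was searched on both strands for TGATGNAA (core letters of the composite element of ATF4 and C/EBP), CACGTG (E-box), CCAAT and GGGCGG (GC box), which occurred in 3.62%, 7.26%, 34.6% and 45% of all 35116 windows of 300 bases. CCAAT was in the windows of PHGDH, PSAT1, SHMT1, MTHFD1, MTHFD2 and MTHFD1L, and TYMS had none of the 4 strings in its window. TGATGNAA occurred in MTHFD1L, as TGATGCAA with its first base at -129 from the start site of the first of its 3 overlapping windows. CACGTG was in MTHFD1 at -15 and in MTHFD1L at -154, counted in that first window, and GGGCGG was in PSAT1, SHMT1 and MTHFD1L. Stretches of PSAT1, MTHFD2 and MTHFD1L are printed 5′ to 3′, the first 2 because these genes varied together between lines and the third for the 1 match to TGATGNAA. Capitals mark CCAAT in PSAT1 (chr9:78296875-78297124, plus strand, -250 to -1) and in MTHFD2 (chr2:74198365-74198561, plus strand, -250 to -54), and TGATGCAA in MTHFD1L (chr6:150866346-150866375, plus strand, -140 to -111).
PSAT1: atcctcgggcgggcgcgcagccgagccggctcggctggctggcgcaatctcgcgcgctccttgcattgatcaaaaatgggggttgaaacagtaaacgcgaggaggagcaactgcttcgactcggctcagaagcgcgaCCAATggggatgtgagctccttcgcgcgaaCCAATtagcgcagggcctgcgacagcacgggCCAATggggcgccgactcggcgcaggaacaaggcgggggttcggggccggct
MTHFD2: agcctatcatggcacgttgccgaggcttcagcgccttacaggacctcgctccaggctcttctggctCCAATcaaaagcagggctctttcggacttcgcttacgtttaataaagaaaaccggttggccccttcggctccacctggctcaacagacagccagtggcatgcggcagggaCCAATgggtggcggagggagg
MTHFD1L: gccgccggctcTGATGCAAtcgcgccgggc
PSAT1 held CCAAT at -113, -83 and -52, and MTHFD2 held it at -184 and -74, none of them overlapping another of the strings searched. A match is a description of letters and not a binding site, and a missing match says only that the letters are not in the window.

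SHMT1 (ENSG00000176974, chromosome 17, 18327860 to 18363563, minus strand) encodes the cytosolic serine hydroxymethyltransferase. VENsens lines 1 to 5 had 55.0, 47.5, 55.1, 53.6 and 59.4 CPM of SHMT1, and VENins lines 1 to 5 had 47.9, 51.9, 57.2, 56.5 and 56.1 CPM. VENsens line 5 was highest, VENsens line 2 and VENins line 1 were lowest, and the groups lay over one another. The means were 54.1 ± 4.27 and 53.9 ± 3.95 CPM, and the log2 fold change of -0.0048 was the closest to 0 of the 9 (SE 0.062, adjusted p = 0.984 in edgeR's quasi-likelihood test, 3 of 5 pairs higher in VENins lines). Its 95% interval was -9.04% to 9.21%.

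MTHFD1 (ENSG00000100714, chromosome 14, 64388031 to 64463457, plus strand) encodes the trifunctional cytosolic enzyme that interconverts formate and folate-bound carbon units. Its values were 101, 95.6, 105, 103 and 105 CPM in VENsens lines 1 to 5 against 91.0, 91.1, 101, 104 and 97.2 CPM in VENins lines 1 to 5. VENins lines 1 and 2 lay below every VENsens line, whereas VENins lines 3, 4 and 5 lay among them. MTHFD1 stood at 102 ± 3.86 and 96.8 ± 5.69 CPM with a log2 fold change of -0.076 (SE 0.053, adjusted p = 0.501 in edgeR's quasi-likelihood test), and 1 of 5 pairs, pair 4, was higher in VENins lines. The processed pseudogene MTHFD1P1 carried counts equal to 55.6% of those of MTHFD1, so the level of the gene is uncertain. With pseudogene counts added, the log2 fold change of MTHFD1 was -0.052 (adjusted p = 0.675 in the same test), and with trends over gene length and GC content taken out it was -0.0066 (adjusted p = 0.951).

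TYMS (ENSG00000176890, chromosome 18, 657604 to 673578, plus strand) encodes thymidylate synthase, which makes dTMP with a folate-bound carbon unit and is the target of fluoropyrimidines. TYMS was at 258, 242, 272, 263 and 265 CPM in VENsens lines 1 to 5 and at 273, 277, 286, 279 and 287 CPM in VENins lines 1 to 5. The VENins lines were all higher than the VENsens lines, although VENsens line 3 and VENins line 1 were separated by less than 1 CPM. The means were 260 ± 11.2 and 280 ± 6.10 CPM, giving a log2 fold change of 0.11 (SE 0.049, unadjusted p = 0.042, adjusted p = 0.288 in edgeR's quasi-likelihood test) with 5 of 5 pairs higher in VENins lines and a 95% interval of 0.313% to 15.9%. The same direction in all 5 pairs was seen for 14.3% of all tested genes. Adjusted p-values of TYMS ran from 0.0924 in DESeq2 without the line number to 0.679 in edgeR's quasi-likelihood test without line pair 2. Exons of ENOSF1 and TYMSOS on the opposite strand cover 39.1% and 7.41% of the exon bases of TYMS, and since the library kit does not keep the strand, reads from these bases cannot be told apart by gene. ENOSF1 itself was at 14.3 ± 1.42 and 14.7 ± 1.2 CPM.

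SHMT2 (ENSG00000182199, chromosome 12, 57229327 to 57234935, plus strand) encodes the mitochondrial serine hydroxymethyltransferase. It was at 663, 573, 582, 589 and 572 CPM in VENsens lines 1 to 5 and at 510, 529, 595, 577 and 674 CPM in VENins lines 1 to 5. VENsens line 1 stood clear of the other VENsens lines, VENins line 5 stood above all 9 others, and VENins lines 1 and 2 lay below all VENsens lines. The means were 596 ± 38.3 and 577 ± 64.2 CPM, with a log2 fold change of -0.051 (SE 0.070, adjusted p = 0.774 in edgeR's quasi-likelihood test) and 2 of 5 pairs higher in VENins lines. Line pair 1 was at a log2 ratio of -0.38 and line pair 5 at 0.24.

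MTHFD2 (ENSG00000065911, chromosome 2, 74198562 to 74217565, plus strand), the mitochondrial dehydrogenase and cyclohydrolase that is high in many tumours and embryonic tissues, was at 530, 496, 491, 508 and 506 CPM in VENsens lines 1 to 5. VENins lines 1 to 5 had 463, 476, 521, 531 and 517 CPM of it. The VENins lines spread over a wider range than the VENsens lines, with VENins lines 1 and 2 below it and VENins line 4 just above it. The log2 fold change was -0.015 between 506 ± 15.1 and 502 ± 30.5 CPM (SE 0.054, adjusted p = 0.926 in edgeR's quasi-likelihood test), with 3 of 5 pairs higher in VENins lines. MTHFD2P7, a processed pseudogene, carried counts equal to 13.7% of those of MTHFD2, and 33.2% of the exon bases of MTHFD2 are shared with other genes, mostly SLC4A5 on the opposite strand, which was at 1.82 ± 0.152 and 2.13 ± 0.394 CPM.

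MTHFD1L (ENSG00000120254, chromosome 6, 150865549 to 151101887, plus strand) encodes the mitochondrial synthetase that releases formate. Its levels were 101, 80.9, 87.8, 85.6 and 85.4 CPM in VENsens lines 1 to 5 and 80.2, 80.1, 87.5, 94.5 and 92.8 CPM in VENins lines 1 to 5. VENsens line 1 was the highest of the 10, and VENins lines 1 and 2 were the lowest together with VENsens line 2. MTHFD1L was at 88.1 ± 7.47 and 87.0 ± 6.78 CPM with a log2 fold change of -0.016 (SE 0.067, adjusted p = 0.936 in edgeR's quasi-likelihood test) and 2 of 5 pairs higher in VENins lines.

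Levels of the enzymes were compared with one another as CPM per kilobase of exon. No account was taken of pseudogene counts or of exon bases shared with other genes, 46.6% for TYMS and 33.2% for MTHFD2. In VENsens lines the order was PSAT1 (136 ± 4.53 CPM per kilobase), SHMT2 (123 ± 7.92), TYMS (105 ± 4.54), MTHFD2 (104 ± 3.1), PHGDH (34.8 ± 2.4), MTHFD1L (17.5 ± 1.49), PSPH (14.6 ± 1.04), MTHFD1 (10.9 ± 0.411) and SHMT1 (7.43 ± 0.586). VENins lines gave the same order, from PSAT1 at 144 ± 7.82 to SHMT1 at 7.4 ± 0.542 CPM per kilobase. Among neighbours in the VENsens order, the ranges of PSAT1 and SHMT2 overlapped over the 5 lines, as did those of TYMS and MTHFD2, and those of MTHFD1L and PSPH met at 16.1 CPM per kilobase. In VENins lines the ranges of SHMT2 overlapped with those of PSAT1 and TYMS, while TYMS and MTHFD2 were apart. The upper genes of the order are a serine enzyme, the mitochondrial enzymes SHMT2 and MTHFD2, and TYMS, which was listed with the cytosolic arm. SHMT1 and MTHFD1, the other cytosolic folate enzymes, came last, and the level of MTHFD1 is uncertain because of MTHFD1P1. Per kilobase of the longest transcript SHMT2 was first (174 CPM per kilobase), then TYMS (156), PSAT1 (136), MTHFD2 (114) and PHGDH (101). On that scale SHMT1 (19.6) was above PSPH (18.5), and MTHFD1 was last (15). The order inside the upper and the lower genes thus depended on the length used. PHGDH moved most in value, from 34.8 to 101 CPM per kilobase, since its annotated exons cover 9217 bases and its longest transcript 3180.

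The mitochondrial enzymes were set against their cytosolic counterparts in each line, as the log2 ratio of CPM per kilobase of exon. SHMT2 to SHMT1 was at 4.18, 4.18, 3.99, 4.05 and 3.86 in VENsens lines 1 to 5 and at 4.00, 3.94, 3.97, 3.94 and 4.18 in VENins lines 1 to 5. Both groups covered about the same range, VENins line 5 was apart from the other VENins lines, and the means were 4.05 ± 0.14 and 4.01 ± 0.099 (SD, n = 5 each), with 1 of 5 pairs higher in VENins lines. MTHFD2 to MTHFD1 was at 3.33, 3.32, 3.17, 3.24 and 3.22 in VENsens lines 1 to 5 and at 3.29, 3.33, 3.31, 3.30 and 3.36 in VENins lines 1 to 5. Its mean was 3.26 ± 0.069 in VENsens and 3.32 ± 0.026 in VENins lines, 4 of 5 pairs were higher in VENins lines, and the difference of 0.062 was less than the spread between VENsens lines. MTHFD1L to MTHFD1 was at 0.69 ± 0.12 and 0.75 ± 0.057, also with 4 of 5 pairs higher in VENins lines, and VENsens line 1 at 0.89 was above all 9 others. The summed mitochondrial enzymes SHMT2, MTHFD2 and MTHFD1L against the summed cytosolic enzymes SHMT1 and MTHFD1 were at 3.74 ± 0.097 and 3.76 ± 0.064, a difference of 0.015 with 2 of 5 pairs higher in VENins lines. TYMS, listed with the cytosolic arm, was left out of this sum. In VENsens lines it was at 105 CPM per kilobase against 7.43 for SHMT1 and 10.9 for MTHFD1. The size of the summed ratio therefore does not describe the whole cytosolic arm. All 4 ratios overlapped between the groups. The difference between the groups turned sign for SHMT2 to SHMT1 without pair 2 (0.00318) and for the summed enzymes without pair 5 (-0.0412). It was larger in size for SHMT2 to SHMT1 without pair 5 (-0.137) and for the summed enzymes without pair 1 (0.0496) or pair 2 (0.0417). It was smaller in size for SHMT2 to SHMT1 without pair 1 (-0.0129). For the summed enzymes it was smaller without pair 3 (0.0017) and per kilobase of the longest transcript (0.00098). That of MTHFD2 to MTHFD1 was 0.0406 without pair 3, and that of MTHFD1L to MTHFD1 was 0.118 without pair 1 and 0.0176 without pair 5. All ratios but that of SHMT2 to SHMT1 contain MTHFD1, whose level is uncertain because of MTHFD1P1, and with pseudogene counts added the means of MTHFD1L to MTHFD1 were 0.060 and 0.095. In that setting the differences were 0.0295 for MTHFD2 to MTHFD1, with 3 of 5 pairs higher in VENins lines, 0.0352 for MTHFD1L to MTHFD1 and 0.00534 for the summed enzymes. No p-value was computed for the ratios.

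**Figure D3:**
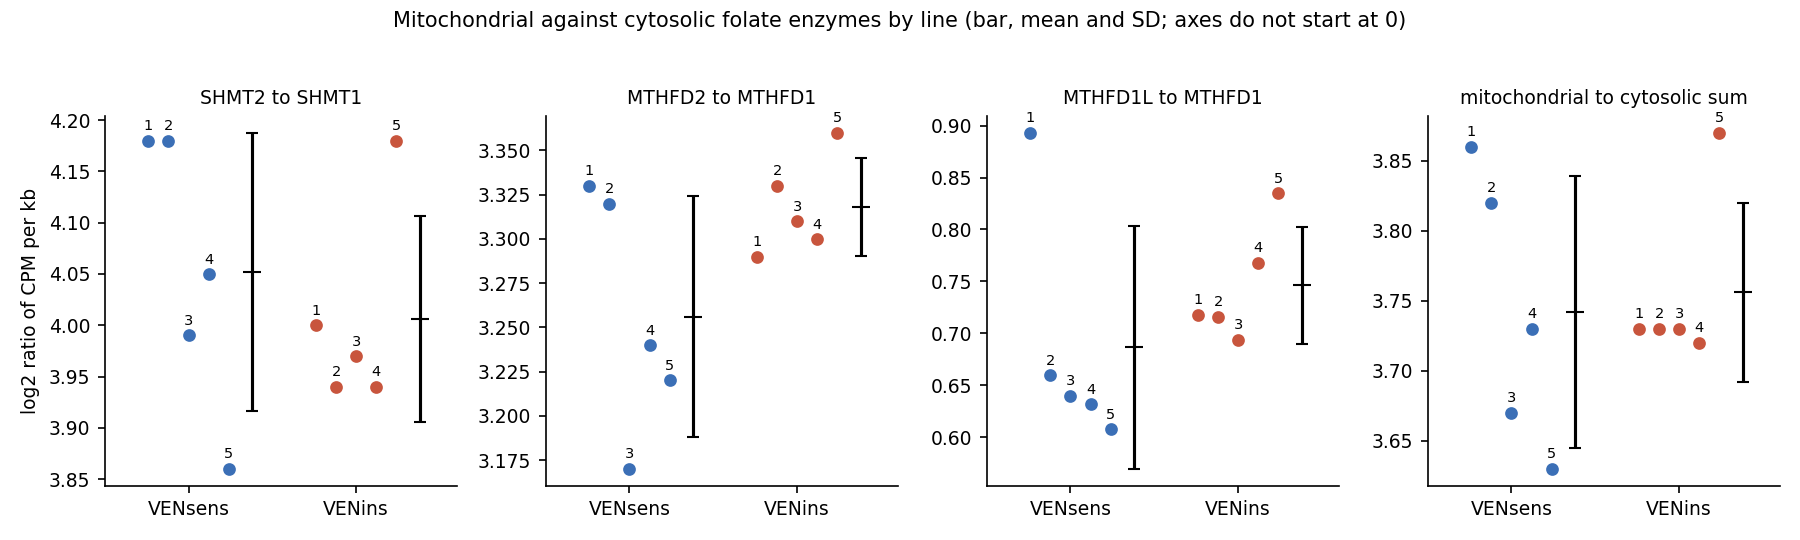
Log2 ratios of mitochondrial to cytosolic folate enzymes in CPM per kilobase of exon, each point 1 line with its number, VENsens in blue and VENins in red, bars the mean and SD of 5 lines, on axes that do not start at 0. The groups overlap in all 4 ratios, and VENins line 5 is above the other VENins lines in the ratio of SHMT2 to SHMT1 (4.18) and in the summed ratio (3.87). The summed ratio leaves out TYMS.

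Between lines of the same group, several enzymes were high or low together. VENsens line 1 was the highest VENsens line for 6 of 9 enzymes and VENsens line 2 the lowest for 7. In VENins lines, line 1 was lowest for 7 of 9 enzymes and line 2 for the other 2, which were PSPH and MTHFD1L, while line 4 and line 5 were highest for 4 each and line 3 for 1, SHMT1. VENsens line 2 and VENins line 1 were also the libraries with the fewest gene counts of their groups, 20631907 and 21145316, and the part of depth in these values was not tested. With the mean of each group taken out of log2 CPM, Pearson's r between pairs of enzymes over the 10 libraries ran from 0.298 to 0.965 with a median of 0.722 over 36 pairs. PHGDH and SHMT2 had r = 0.965 (Spearman's rho = 0.952), and r = 0.907 without VENins lines 1 and 5. PSAT1 and MTHFD2 had r = 0.92 (rho = 0.867), and r = 0.834 without VENins lines 1 and 2. PSPH and MTHFD1L had r = 0.892 (rho = 0.891), and r = 0.839 without VENins line 2 and VENsens line 1. The cytosolic enzymes SHMT1 and MTHFD1 had r = 0.847 (rho = 0.842), and r = 0.691 without VENins line 1 and VENsens line 2. The lowest 2 values of r were those of TYMS to MTHFD2 (0.298, rho = 0.248) and to SHMT2 (0.363, rho = 0.442), and they were 0.577 and 0.587 without VENsens lines 2 and 3. The r of TYMS of 0.799 (rho = 0.745) to SHMT1 was 0.382 without VENins line 1 and VENsens line 2, so that it rests on these libraries. All these values share the libraries and their scaling and are a description of 10 cultures.

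Line pair 1 bore on the sign of several differences. Without it, the log2 fold changes of 5 enzymes, PSPH, SHMT1, SHMT2, MTHFD2 and MTHFD1L, were above 0, at 0.028, 0.043, 0.031, 0.031 and 0.061. Without pair 5, those of PHGDH and SHMT1 turned as well, to -0.0068 and 0.015. PSAT1, MTHFD1 and TYMS held their signs with each pair left out, with TYMS between 0.088 and 0.12 and MTHFD1 between -0.097 and -0.057. The 3 enzymes PHGDH, PSAT1 and TYMS had an unadjusted p under 0.05 without pair 1 (edgeR's quasi-likelihood test). In that setting 2820 of all 16776 tested genes did, and the smallest adjusted p of an enzyme was 0.216. Without pair 2, 3, 4 or 5, 0 enzymes had an unadjusted p under 0.05 in the same test. Of all tested genes, 1411 of 16770, 2223 of 16739, 2511 of 16768 and 2763 of 16801 did.

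**Figure D4:**
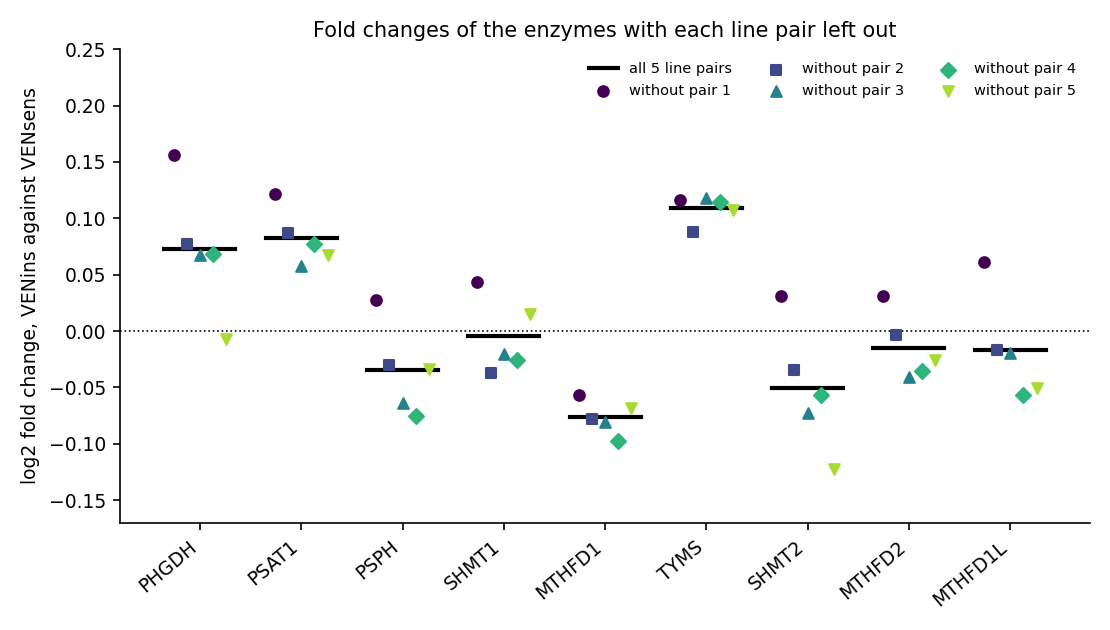
Log2 fold changes of the 9 enzymes in VENins against VENsens lines from all 5 line pairs (black bars) and with each pair left out (points). Without pair 1 the values of PSPH, SHMT1, SHMT2, MTHFD2 and MTHFD1L are above 0, and TYMS stays between 0.088 and 0.12.

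Around the enzymes, 8 lists of genes described the rest of the pathway and the genes usually regulated with it. They held 103 symbols, of which 94 were tested. Of the 94, 1 was called, SFXN3 (lower in VENins lines, edgeR's quasi-likelihood test), where 0.197% of all tested genes were. At an unadjusted p under 0.05 there were 14 of 94, or 14.9%, with 7 higher and 7 lower, close to the 16.2% of all tested genes. Their log2 fold changes were above 0 for 48 genes and below 0 for 46, with a median of 0.0029, where all tested genes had 0.0035. The groups did not overlap in CPM for 4 of the 94, near the 4.66% of all tested genes.

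SFXN3 belongs to the sideroflexins, a family of mitochondrial membrane proteins that includes the serine carrier SFXN1. SFXN3 was at 52.5, 47.6, 50.9, 55.6 and 51.4 CPM in VENsens lines 1 to 5 and at 34.3, 33.8, 36.7, 49.5 and 37.6 CPM in VENins lines 1 to 5. VENins line 4 reached into the VENsens range, and the other 4 VENins lines lay below it. SFXN3 fell from 51.6 ± 2.9 to 38.4 ± 6.39 CPM, which is a log2 fold change of -0.44 (SE 0.067, adjusted p = 0.0151 in edgeR's quasi-likelihood test) with 0 of 5 pairs higher in VENins lines. It was no longer called once pair 2, 3 or 5 was left out (adjusted p = 0.198, 0.0532 and 0.0563 in the same test, with 6.55e-07 to 0.198 over all settings), where its log2 fold changes were -0.424, -0.429 and -0.433. SFXN1 itself was at 101 ± 3.28 and 97.2 ± 6.04 CPM and was looked at after its values were seen. Of the 9 tested folate and serine transporters, 8 had log2 fold changes below 0, and the median was -0.054. The exception was FOLR2, a folate receptor gene with low counts, at 1.31 ± 0.248 and 1.75 ± 0.21 CPM, with a log2 fold change of 0.41 (SE 0.17, adjusted p = 0.267 in edgeR's quasi-likelihood test, 4 of 5 pairs higher).

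ALDH1L2 is the mitochondrial enzyme that oxidizes formyl-tetrahydrofolate, releasing the carbon unit as CO2. Its level was 41.3, 36.6, 34.7, 32.6 and 38.6 CPM in VENsens lines 1 to 5 and 9.4, 8.05, 22.8, 41.7 and 11.8 CPM in VENins lines 1 to 5. VENins line 4 was the highest of all 10 lines, and the other 4 VENins lines were below every VENsens line. ALDH1L2 had the largest log2 fold change of the 94 genes in size, -1.19 (SE 0.27, adjusted p = 0.0792 in edgeR's quasi-likelihood test, 1 of 5 pairs higher), between means of 36.7 ± 3.37 and 18.8 ± 14.1 CPM. Leaving out pair 4 gave -1.62 (adjusted p = 4.68e-05 in the same test, with 5e-42 to 0.518 over all settings). With no filter on low counts ALDH1L2 was called with all 5 pairs (-1.18, SE 0.083, adjusted p = 5e-42 in the same test). That SE was far below the 0.27 of the filtered fit, although VENins lines ran from 8.05 to 41.7 CPM in both. The p-value without the filter is therefore not a measure of the spread between lines. ALDH1L2 was not called without pair 1, 2, 3 or 5. GGH, which removes glutamates from folates and was chosen after its values were seen, was at 94.6 ± 4.58 and 106 ± 2.75 CPM with a log2 fold change of 0.16 (SE 0.056, adjusted p = 0.18 in edgeR's quasi-likelihood test, 5 of 5 pairs higher), and its groups did not overlap. Over the 9 tested genes of the other folate enzymes, 4 were above 0 and 5 below, with a median of -0.0046.

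GLDC, the glycine decarboxylase that passes a carbon unit from glycine to folate in mitochondria, was at 37.8, 41.0, 42.3, 41.4 and 46.8 CPM in VENsens lines 1 to 5. VENins lines 1 to 5 held 30.5, 29.3, 36.7, 46.3 and 27.2 CPM of GLDC. VENins line 4 again lay in the VENsens range, and the other 4 VENins lines lay below it. GLDC was at 41.9 ± 3.22 and 34.0 ± 7.73 CPM with a log2 fold change of -0.32 (SE 0.10, adjusted p = 0.149 in edgeR's quasi-likelihood test, 1 of 5 pairs higher), leaving out pair 4 gave -0.44 (adjusted p = 0.012 in the same test, with 0.00251 to 0.575 over all settings), and leaving out pair 5 gave -0.20 (adjusted p = 0.276). In the list of glycine cleavage and serine use, 5 of 8 tested genes were below 0, and the median was -0.064, with 0 called by edgeR with all pairs and the filter on low counts or by DESeq2 and GLDC alone at an unadjusted p under 0.05. SPTLC2, a subunit of the enzyme that condenses serine with palmitoyl-CoA, had a log2 fold change of -0.10 (SE 0.057, adjusted p = 0.39 in edgeR's quasi-likelihood test, 0 of 5 pairs higher). VENins line 4 thus held the highest VENins level of SFXN3, ALDH1L2 and GLDC alike, and its gene counts, 25394653, were the most of any VENins line. The part of that line and of its depth in these differences was not tested beyond leaving out pair 4.

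**Figure D5:**
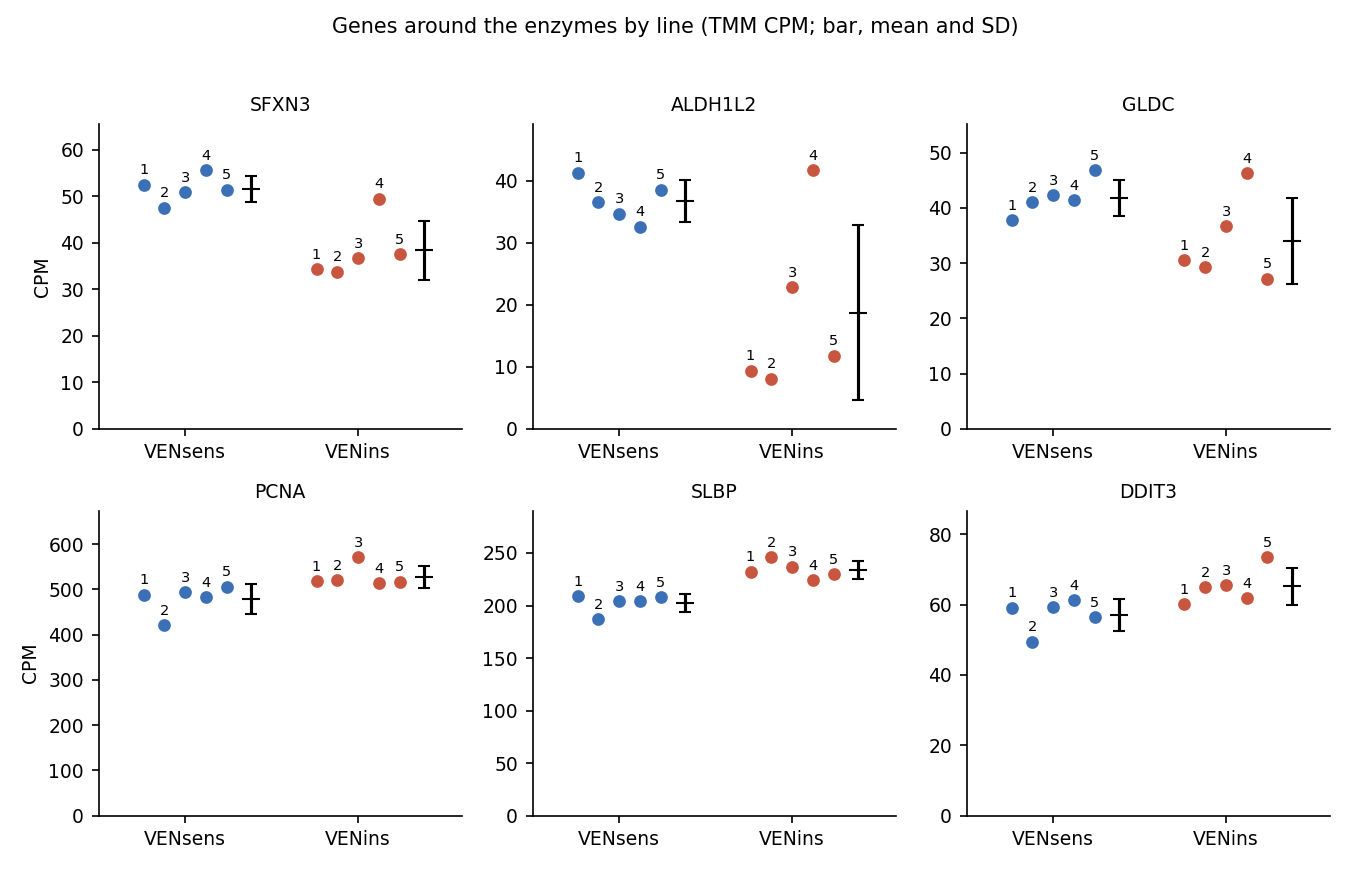
Expression of SFXN3, ALDH1L2, GLDC, PCNA, SLBP and DDIT3 in CPM after TMM normalization, each point 1 line with its number, VENsens in blue and VENins in red, bars the mean and SD of 5 lines. VENins line 4 is the highest VENins line for SFXN3, ALDH1L2 and GLDC. The groups of PCNA and SLBP do not overlap, which holds for 4.66% of all tested genes.

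The pathways that use the carbon units held no called gene in edgeR's quasi-likelihood test, where PFAS alone had an unadjusted p under 0.05, and none in DESeq2 with or without the line number. In the methionine cycle 3 of 6 tested genes were above 0, with a median of -0.00021. AHCY, which splits S-adenosylhomocysteine, was at 219 ± 13.5 and 229 ± 19.4 CPM with a log2 fold change of 0.063 (adjusted p = 0.648 in edgeR's quasi-likelihood test, 4 of 5 pairs higher), and MTR, the methionine synthase, was at 107 ± 3.11 and 104 ± 4.44 CPM with one of -0.050 (adjusted p = 0.678, 0 of 5 pairs higher). All 12 purine synthesis genes were tested, 8 of them above 0, with a median of 0.013. PFAS and GART, whose products catalyse early steps of the purine ring, had log2 fold changes of -0.12 (126 ± 5.19 and 117 ± 11.5 CPM, adjusted p = 0.298 in edgeR's quasi-likelihood test, 1 of 5 pairs higher) and -0.095 (137 ± 2.57 and 129 ± 11.1 CPM, adjusted p = 0.437, 1 of 5 pairs higher). Thymidylate and deoxynucleotide supply had 5 of 8 genes above 0 and a median of 0.015. DTYMK, the kinase that acts on the product of TYMS, was at 64.9 ± 7.06 and 70.9 ± 7.17 CPM with a log2 fold change of 0.13 (adjusted p = 0.423 in edgeR's quasi-likelihood test, 3 of 5 pairs higher), and DCTD, which supplies the substrate of TYMS, was at 113 ± 4.71 and 109 ± 5.7 CPM with one of -0.053 (adjusted p = 0.679, 2 of 5 pairs higher). VENsens line 2 was lowest for DTYMK at 52.8 CPM and VENins line 5 highest at 83.2 CPM, and the log2 fold change of DTYMK was 0.0605 without pair 2 and 0.0745 without pair 5. Leaving out pair 1 gave 0.128 for AHCY and -0.0216 for DCTD, leaving out pair 3 gave 0.0352 for AHCY, and leaving out pair 5 gave -0.0558 for GART.

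Targets of ATF4 outside the pathway had 14 of 24 tested genes above 0 and a median of 0.028, and 0 were called by edgeR with the line number as a block, where 4 had an unadjusted p under 0.05, namely DDIT3, CEBPG, CEBPB and SLC7A11, of which CEBPG and CEBPB were chosen after their values were seen. DESeq2 called 0 of the 24 with and without the line number, while edgeR called CEBPB and ATF5 with no filter on low counts and CEBPB without pair 1. DDIT3, a stress-induced transcription factor, was at 57.1 ± 4.62 and 65.2 ± 5.16 CPM with a log2 fold change of 0.19 (SE 0.068, adjusted p = 0.19 in edgeR's quasi-likelihood test, 5 of 5 pairs higher). SLC7A11, the cystine transporter, went the other way in value, with 66.9 ± 6.99 and 58.6 ± 1.23 CPM and a log2 fold change of -0.19 (SE 0.067, adjusted p = 0.192 in the same test, 1 of 5 pairs higher). CEBPG and CEBPB had log2 fold changes of 0.12 and 0.26 (adjusted p = 0.255 and 0.299, with 5 and 4 of 5 pairs higher). The transcript of ATF4 itself, in the list and looked at after its values were seen, was at 972 ± 66.5 and 1040 ± 70.8 CPM. Summed over the list, VENins line 5 was highest at 6340 CPM, VENsens line 1 was next at 5840 CPM and VENsens line 2 was lowest at 4950 CPM, the lines that were also highest and lowest for PHGDH.

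S phase genes, among which TYMS is often counted, had 10 of 18 tested genes above 0 and a median of 0.027, and 0 were called by edgeR with the line number as a block, where SLBP, PCNA and MCM2 had an unadjusted p under 0.05, MCM2 being chosen after its values were seen. SLBP was called by edgeR without the line number (adjusted p = 0.0429) and with no filter on low counts (adjusted p = 0.0233). With trends over gene length and GC content taken out, edgeR called it at the threshold (adjusted p = 0.05 after rounding). It was also the 1 of the 18 that DESeq2 called with and without the line number (adjusted p = 0.0323 and 0.00111). SLBP, which binds histone mRNA in S phase, was at 202 ± 9.14 and 234 ± 8.06 CPM with a log2 fold change of 0.21 (SE 0.054, adjusted p = 0.0991 in edgeR's quasi-likelihood test, 5 of 5 pairs higher) and no overlap between the groups. PCNA, the sliding clamp of DNA replication, was at 479 ± 33.2 and 528 ± 24.1 CPM, with a log2 fold change of 0.14 (SE 0.053, adjusted p = 0.207 in the same test, 5 of 5 pairs higher), also without overlap. Groups without overlap were seen for 4.66% of all tested genes. For MCM2, a subunit of the replicative helicase, the log2 fold change was -0.12 (adjusted p = 0.273, 0 of 5 pairs higher). The summed S phase genes came to 5140 ± 334 CPM in VENsens lines and to 5080 ± 206 CPM in VENins lines. In bulk libraries, a different share of cells in S phase and a different amount of RNA per cell cannot be told apart.

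The genes whose levels followed an enzyme most closely between lines were sought among 8799 protein-coding genes, with the mean of each group taken out. PHGDH was followed by LYL1 (r = 0.991, rho = 0.988 over 10 libraries), CDT1 (r = 0.981, rho = 0.964) and GPT2 (r = 0.973, rho = 0.976), and without VENins lines 1 and 5 their r was 0.98, 0.948 and 0.968. MTHFD2 was followed by DNASE2 (r = 0.96, rho = 0.939), LMO2 (r = 0.944, rho = 0.927) and TBKBP1 (r = 0.937, rho = 0.964), with r of 0.976, 0.884 and 0.888 without VENins lines 1 and 4. For TYMS the genes were KMT5A (r = 0.985, rho = 0.988), SAE1 (r = 0.97, rho = 0.927) and MPV17 (r = 0.969, rho = 0.976), with r of 0.948, 0.884 and 0.964 without VENsens lines 2 and 3. Each r is the highest of many and describes these libraries.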

How the data were processed

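RNA-Seq libraries of 10 RS4;11 lines were analysed (TruSeq RNA v2, which does not keep the strand). The authors deposited raw counts of reads per gene, used here without change. The submitters' processing notes name bcl2fastq 2.20.0.422, Bowtie2 2.3.5.1, SAMtools 1.9 and HTSeq 0.9.1 with the builds hg19 and GRCh37, and the counting options are not given in the sources used here. The 5 summary lines of each file, left out of library sizes and tests, held 24.6% to 26.2% of reads with low alignment quality, 9.39% to 10.2% not aligned, 7.29% to 7.78% on no gene and 3.69% to 3.98% on several genes. Gene names, lengths and positions came from GENCODE 29 (GRCh38) by identifier, a later build than that of the counts, and named 52526 identifiers. Unnamed identifiers carried 0.907% of the counts.

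In R 4.3.3, edgeR 4.0.16 (limma 3.58.1) kept genes by filterByExpr (minimum count 10, total 15), applied TMM and tested VENins against VENsens with the quasi-likelihood F test and the line number as a block, since the study describes a paired analysis. P-values were adjusted over all tested genes by Benjamini-Hochberg at 0.05. Standard errors were derived from F, a prior count of 2 entered log2 CPM, and 95% intervals used the fit's total degrees of freedom. DESeq2 1.42.0, other normalizations and filters, pseudogene counts, length and GC trends (splines with 4 degrees of freedom) and each line pair left out were the alternatives. Steps were tested on simulated data. Figures were drawn in Python 3.11.15 with matplotlib 3.10.9.

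The members and the gene lists were chosen with earlier results of these data known, so nothing was adjusted over the enzymes alone. Genes named in the text are the 9 enzymes, from each companion list the called genes and the 2 with the smallest p, and for PHGDH, MTHFD2 and TYMS the 3 protein-coding genes with at least 10 CPM on average and the highest r. Some genes that this rule or the marker lists name are not reported here. ALDH1L1, FTCD, FOLR1, SDS, CBS, BHMT, BHMT2 and NUPR1 did not pass the filter, and UHRF1 was not matched by identifier.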

Additional observations from a re-analysis of the deposited data

Results flagged for a closer look

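In 11 of 58 groups of 5 lines the farthest line's gap to its neighbour was over 0.71 of the group's range, Dixon's critical value, where chance alone gives about 1 in 20 groups, or 2.9. SHMT2 in VENsens line 1 was at 663 CPM, with the other VENsens lines from 572 to 589. SFXN3 in VENins line 4 was at 49.5 CPM against 33.8 to 37.6 in the others. VENsens line 2 lay below its group for PFAS (117 CPM against 127 to 130), DTYMK (52.8 against 65.7 to 70.1), SLBP (187 against 204 to 209) and PCNA (421 against 483 to 506), and it was the library with the fewest gene counts, 20631907, whose part was not tested. DTYMK in VENins line 5 was at 83.2 CPM against 65.6 to 70, and PCNA in VENins line 3 at 571 CPM against 513 to 520. Among the log2 ratios, SHMT2 to SHMT1 was at 4.18 in VENins line 5 against 3.94 to 4.00, MTHFD1L to MTHFD1 at 0.893 in VENsens line 1 against 0.608 to 0.66, and the summed enzymes at 3.87 in VENins line 5 against 3.72 to 3.73.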

How the results depend on the processing

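No enzyme was called under any of the 15 settings of edgeR and DESeq2. From 0 to 3 enzymes had an unadjusted p under 0.05 in them. Among all tested genes, the fewest under that p were 1411 of 16770, without pair 2, where 0 enzymes were. The most were 3275 of 16756, after the spline fit on length and GC, where 2 enzymes were. The 3 enzymes came without pair 1, where 2820 of 16776 genes were under it. Of the enzyme values, 79 in other settings and 38 with a line pair left out kept their sign. With length and GC trends taken out, 3 log2 fold changes turned sign, SHMT1 (0.0545), MTHFD1L (0.0143) and MTR (0.0194), and others moved by over 1.5 times, among them PHGDH (0.147), PSAT1 (0.0475), MTHFD1 (-0.00664), SHMT2 (-0.0277), SPTLC2 (-0.0477), PFAS (-0.077) and GART (-0.0397), and the cause was not tested. With each line pair left out, they ran from -0.0068 to 0.16 for PHGDH, -0.076 to 0.028 for PSPH, -0.037 to 0.043 for SHMT1, -0.12 to 0.031 for SHMT2, -0.040 to 0.031 for MTHFD2 and -0.056 to 0.061 for MTHFD1L. The line number served as a block in the pairing of lines, although same-numbered lines did not deviate together (r from -0.103 to 0.028) and no VENins line was closest to its own number. Without the block 149 genes were called. DESeq2 called 217 with the block and 739 without, edgeR 664 with no filter and 155 with the trends taken out, against 33, and 6 to 331 with a pair left out, and the cause was not tested. Companion genes called were 2 without the block (SFXN3, SLBP), 2 in DESeq2 with it and 2 with the trends taken out (the same genes), 4 without it (GGH, SFXN3 and SLBP among them), 6 with no filter (ALDH1L2, ATF5, CEBPB, GLDC, SFXN3, SLBP) and 0 to 3 with a pair left out, against 1. VENsens levels per kilobase of longest transcript were 101 (PHGDH), 18.5 (PSPH), 19.6 (SHMT1), 15 (MTHFD1), 156 (TYMS), 174 (SHMT2), 114 (MTHFD2) and 24.4 (MTHFD1L), which follows from the shorter length. The difference between the groups turned sign for SHMT2 to SHMT1 without pair 2 (0.00318) and for the summed enzymes without pair 5 (-0.0412), and ran from -0.137 to 0.00318 and from -0.0412 to 0.0496 with each pair left out. Per kilobase of longest transcript, SHMT2 to SHMT1 in VENsens lines was 3.15 and not 4.05, and with pseudogene counts added MTHFD1L to MTHFD1 was 0.060 and not 0.69. Depth limits PSPH and SHMT1 most, at 753 and 981 counts.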
